A study of Mus musculus with 4 samples.

Results

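Amino acid and unfolded protein stress genes are the 41 genes of a list that cells use to cope with a shortage of amino acids or with misfolded protein in the endoplasmic reticulum (ER). They were found by their gene symbol in the annotation of the array, and 1 probe set stood for each gene, the one with the highest mean over the arrays, with a suffix _x_at (probes that can match other transcripts) only where there was no other. Of the 41 genes, 40 had a probe set assigned to 1 gene and 39 had one bright enough to be tested, among 13023 genes tested in all. They were described in 2 sets, 23 genes of the amino acid response (21 tested) and 18 genes of the unfolded protein response and ER folding (18 tested). The genes were listed by name rather than by a measured value, and the list was drawn up with earlier results of these data known.

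Both responses share a switch. When amino acids run short or protein misfolds in the ER, kinases phosphorylate the translation factor eIF2, most protein synthesis slows, and translation of the transcription factor Atf4 rises, which turns on genes for amino acid uptake, amino acid synthesis and the charging of transfer RNA. In the ER, the sensors Ern1 (IRE1), Eif2ak3 (PERK) and Atf6 detect misfolded protein, and the factors Xbp1 and Atf6 turn on chaperones, disulfide isomerases and the machinery that removes failed protein. Much of this regulation acts on translation, splicing and protein cleavage, which an array of transcript levels does not measure.

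The samples were mouse embryonic stem (ES) cells, 2 clones in which the gene of the zinc finger transcription factor Klf5 was knocked out (KO) and 2 wild-type (WT) clones, with 1 Affymetrix array per clone. The culture medium of all 4 clones contained serum and LIF, a cytokine that keeps mouse ES cells undifferentiated. The parental line, the deleted stretch of Klf5 and the origin of the clones are not stated in the labels, so p-values measure only the spread between these clones. Values are intensities after quantile normalization, and fold changes are differences of log2(intensity + 16), KO minus WT.

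The brightest Klf5 probe set read 34.8 and 49.9 in KO clones 1 and 2, against 2398 and 1782 in WT clones 1 and 2 (log2 fold change -5.17, SE 0.22, with 2 arrays in each group; limma, adjusted p = 3.29e-05; later values after ± are SE). Its other probe set read 82.6 and 61.0 in KO clones, against 102 and 88.6 in WT clones. Over all genes tested, 4.28% passed the threshold of an adjusted p of 0.05, 2.94% as higher and 1.34% as lower in KO clones. Of 10 markers of pluripotent ES cells, 0 passed (1 had an unadjusted p under 0.05), and their median log2 fold change was -0.15. Of 22 tested markers of fibroblasts and feeder cells, 18 passed, all as higher in KO clones, with a median of 2.02. The summed intensity of those fibroblast markers was 13535 and 13841 in KO clones, against 4707 and 3416 in WT clones. None of the 22 was at 0 in a clone, and 3 of them lay below the intensity of 13.0 at which dim probe sets were removed in both WT clones (0 in both KO clones). The part of these fibroblast transcripts in the values below was not tested, and in bulk RNA fewer cells of a type cannot be told apart from less RNA per cell.

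No stress gene passed the test, and the amino acid set and the unfolded protein set lay on opposite sides of 0. Of 39 tested stress genes, 0 passed (limma, adjusted p under 0.05), beside 4.28% of all genes. At an unadjusted p under 0.05 there were 6 amino acid genes lower and 3 unfolded protein genes higher in KO clones, 28.6% and 16.7% of their sets, beside 10.6% of all genes lower and 10.9% higher. Of the 21 amino acid genes, 17 had a negative log2 fold change, beside 52.8% of all genes, and 14 (66.7%) were lower in both KO clones than in either WT clone, beside 29.7% of all genes. Of the 18 unfolded protein genes, 16 had a positive log2 fold change, beside 47.2% of all genes, and 10 (55.6%) read higher in both KO clones than in either WT clone, beside 25.9% of all genes. The 14 and the 10 were counted after quantile normalization. Of the 14, only Sesn3 and Trib3 overlapped before it. Before it, the groups of Canx stayed apart (2634 and 2978 in KO clones, against 2321 and 1697 in WT clones). The others of the 10 overlapped, such as Hspa5 (5441 and 5411 in KO clones, against 5998 and 4827 in WT clones). WT clone 1 was the brightest array before normalization, with a trimmed mean (2% removed at each end) of 227. That of WT clone 2 was 139, and those of KO clones 1 and 2 were 138 and 150. The part of this brightness in the values before normalization was not tested. The median log2 fold change was -0.35 for the amino acid genes and 0.20 for the unfolded protein genes, against -0.02 for all genes. Without normalization between arrays all genes had a median of -0.23, the amino acid genes one of -0.68 and the unfolded protein genes one of -0.02, which is 0.45 below and 0.21 above that of all genes. In that setting 20 of the 21 amino acid genes were negative and 8 of the 18 unfolded protein genes positive, and with the arrays centred on their medians 20 were negative and 10 positive. All 39 values were lower without normalization, by between 0.053 and 0.35, so every unfolded protein value shrank or turned negative except those already below 0: Xbp1 had 0.12, Dnajc3 0.085, Hspa5 0.012 and Canx 0.49.

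The count of 0 depended on the settings of the test. It was also 0 with a pseudocount of 1 (0.869% of all genes called), with no filter on dim probe sets (0.643%) and without normalization (1.48%). It was 6 with a pseudocount of 64 (9.06% of all genes), 4 with a filter at the 60th percentile (8.15%), 6 with median centring (8.29%), 6 with a variance trend (8.6%) and 5 with the mean over the probe sets of a gene (8.08%). That last run was fitted and adjusted over genes rather than probe sets, so its count differs in more than the averaging. With 1 clone left out it was 0 without KO clone 1 (0.857%), KO clone 2 (1.52%) or WT clone 2 (2.14%) and 1 without WT clone 1 (2.74%). The 8 genes called in some setting, that with clone number as a block included, were Chac1, Cth, Shmt2, Aldh18a1, Slc7a5 and Slc7a3, all lower in KO clones, and Canx and Dnajb9, both higher.

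**Figure D1:**
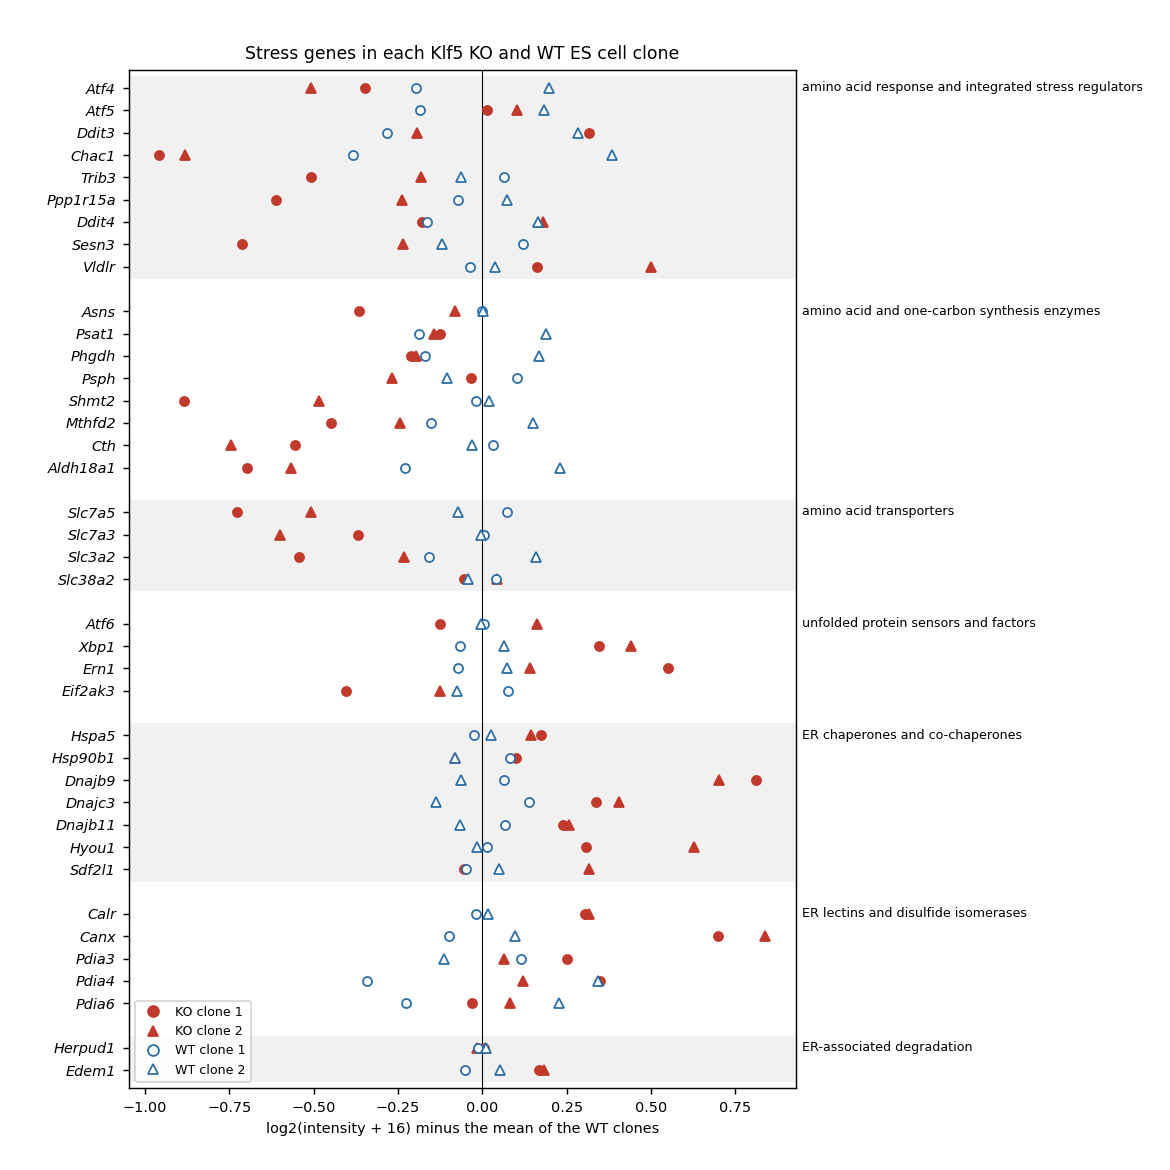
Each row is a stress gene and each point an array, placed at its log2(intensity + 16) minus the mean of the WT clones. Filled red points are KO clones 1 (circle) and 2 (triangle), and open blue points are WT clones 1 (circle) and 2 (triangle). After quantile normalization most red points of the upper 3 blocks lie left of the WT clones, as in the 14 amino acid genes that read lower in both KO clones, and most of the lower blocks lie right of them.

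After quantile normalization the opposite signs held for each KO clone set against each WT clone. The median difference of the amino acid genes was -0.36 for KO clone 1 and -0.17 for KO clone 2 against WT clone 1, and -0.45 and -0.37 against WT clone 2. For the unfolded protein genes it was 0.20 and 0.25 against WT clone 1, and 0.23 and 0.17 against WT clone 2. The clones of a group also differed in the amino acid genes, with a median of 0.15 for WT clone 2 minus WT clone 1 and 0.13 for KO clone 2 minus KO clone 1. In the unfolded protein genes these differences were 0.03 and 0.02. The pairings share clones and are not independent of each other.

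The promoters of several stress genes carry the letters of the elements through which these responses act, and the stretches with those letters are shown here so that the values can be read beside them. The letters searched, on both strands of the RefSeq promoter windows (mouse build GRCm38.p6, from 250 bases before to 50 bases after each annotated start), were TGATGNAA for the C/EBP-ATF response element bound by Atf4, and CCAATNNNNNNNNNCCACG for the ER stress response element bound by Atf6 and Xbp1. No match of one overlapped a match of the other. TGATGNAA was found in 3.97% of all 32851 windows and 4.51% of the 27025 genes they belong to, and in the windows of 6 of the 20 amino acid genes and 1 of the 16 unfolded protein genes that had one. The ER stress letters were found in 0.119% of all windows and 0.137% of genes, in 0 of the 20 and in 6 of the 16. Matches in tested genes that lie upstream of the start are printed with the neighbouring bases, 5′ to 3′ on the strand of the gene, with the match in capitals (in reverse complement where the match is on the other strand).
Chac1, chr2:119351029-119351076 (+): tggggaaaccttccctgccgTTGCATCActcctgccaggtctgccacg
Asns, chr6:7693210-7693252 (-): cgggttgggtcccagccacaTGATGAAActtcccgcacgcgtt
Vldlr, chr19:27216800-27216847 (+): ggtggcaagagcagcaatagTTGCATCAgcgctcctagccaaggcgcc
Herpud1, chr8:94386297-94386344 (+): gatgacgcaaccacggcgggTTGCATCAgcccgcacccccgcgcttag
Hspa5, chr2:34772005-34772063 (+): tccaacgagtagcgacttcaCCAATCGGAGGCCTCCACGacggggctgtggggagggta
Dnajc3, chr14:118937807-118937865 (+): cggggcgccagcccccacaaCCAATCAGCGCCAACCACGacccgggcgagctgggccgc
Canx, chr11:50325780-50325838 (-): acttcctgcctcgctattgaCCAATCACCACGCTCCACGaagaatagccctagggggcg
Calr, chr8:84847055-84847113 (-): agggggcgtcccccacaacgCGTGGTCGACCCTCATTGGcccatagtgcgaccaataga
Pdia6, chr12:17266471-17266529 (+): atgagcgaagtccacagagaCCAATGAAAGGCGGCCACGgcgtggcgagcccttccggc
Hsp90b1, chr10:86705618-86705676 (-): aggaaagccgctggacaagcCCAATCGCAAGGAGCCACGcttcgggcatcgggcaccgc
Hsp90b1, chr10:86705513-86705571 (-): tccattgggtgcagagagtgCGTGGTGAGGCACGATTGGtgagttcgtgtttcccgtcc
The first base of the match lay 65 bases before the start in Hspa5, 193 in Chac1 and 23 in Asns. The 6 genes with the ER stress letters had log2 fold changes from 0.01 (Hsp90b1) to 0.77 (Canx) with a median of 0.24, and the 10 other unfolded protein genes with a window had values from -0.27 to 0.76 with a median of 0.20. Of the 4 tested amino acid genes with the Atf4 letters (Chac1, Trib3, Asns and Vldlr), 3 had a negative value and 1 a positive one, and of the 14 without them 11 were negative and 3 positive. A match of letters is a description of the sequence and does not show that a factor binds there.

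Among the regulators of the amino acid response and the integrated stress response, Chac1 had the lowest log2 fold change. Chac1, an enzyme that breaks down glutathione and is induced through Atf4, read 75.7 and 80.8 in KO clones 1 and 2, against 121 and 216 in WT clones 1 and 2. The WT clones differed more from each other than the KO clones did, and the groups did not overlap. Its log2 fold change was -0.92 ± 0.25 (1.89-fold lower, 95% confidence interval -1.495 to -0.34; limma, adjusted p = 0.088), and it was -0.54 without WT clone 2 and -1.25 without WT clone 1 (adjusted p = 0.37 and 0.020). Atf4 itself, the transcription factor at the head of the response, read 1005 and 898 in KO clones, against 1117 and 1471 in WT clones (log2 fold change -0.43 ± 0.20; limma, adjusted p = 0.28), and its value was -0.23 without WT clone 2. Another tested Atf4 probe set had -0.24, with 758 and 611 in KO clones, against 598 and 1081 in WT clones, so the groups overlapped.

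Ppp1r15a (GADD34), which leads the phosphatase that reverses the eIF2 signal, read 212 and 280 in KO clones, against 316 and 351 in WT clones, a log2 fold change of -0.43 ± 0.20 (limma, adjusted p = 0.27). Sesn3, a sestrin that restrains the growth kinase mTORC1, read 83.5 and 123 in KO clones, against 161 and 134 in WT clones. Trib3, a pseudokinase that feeds back on Atf4, read 74.7 and 97.7 in KO clones, against 119 and 107 in WT clones. These genes were lower in both KO clones than in either WT clone, although for Sesn3 and Trib3 the higher KO clone lay close to the lower WT clone. Before quantile normalization the groups overlapped in Sesn3 (72.9 and 115 in KO clones, against 224 and 112 in WT clones). They also overlapped in Trib3 (66.2 and 92.8, against 164 and 89.1), while Ppp1r15a stayed apart (176 and 261, against 446 and 294).

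The other regulators overlapped between groups or read higher in KO clones. Ddit3 (CHOP), a factor induced by lasting ER stress, read 119 and 78.7 in KO clones, against 73.2 and 116 in WT clones, so the clones of each group spanned nearly the same range. Ddit4 (REDD1), an inhibitor of mTORC1, read 1171 and 1507 in KO clones, against 1183 and 1489 in WT clones, with a log2 fold change of 0.00081 (95% confidence interval -0.48 to 0.48). Atf5, a factor related to Atf4, read 109 and 117 in KO clones, against 93.2 and 125 in WT clones. Vldlr, a lipoprotein receptor gene, was the only amino acid gene to read higher in both KO clones, at 29.3 and 41.2, against 23.4 and 25.5 in WT clones (log2 fold change 0.33 ± 0.19; limma, adjusted p = 0.37). It rests on 1 probe set with the suffix _x_at, and its 5 other probe sets were too dim to be tested.

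**Figure D2:**
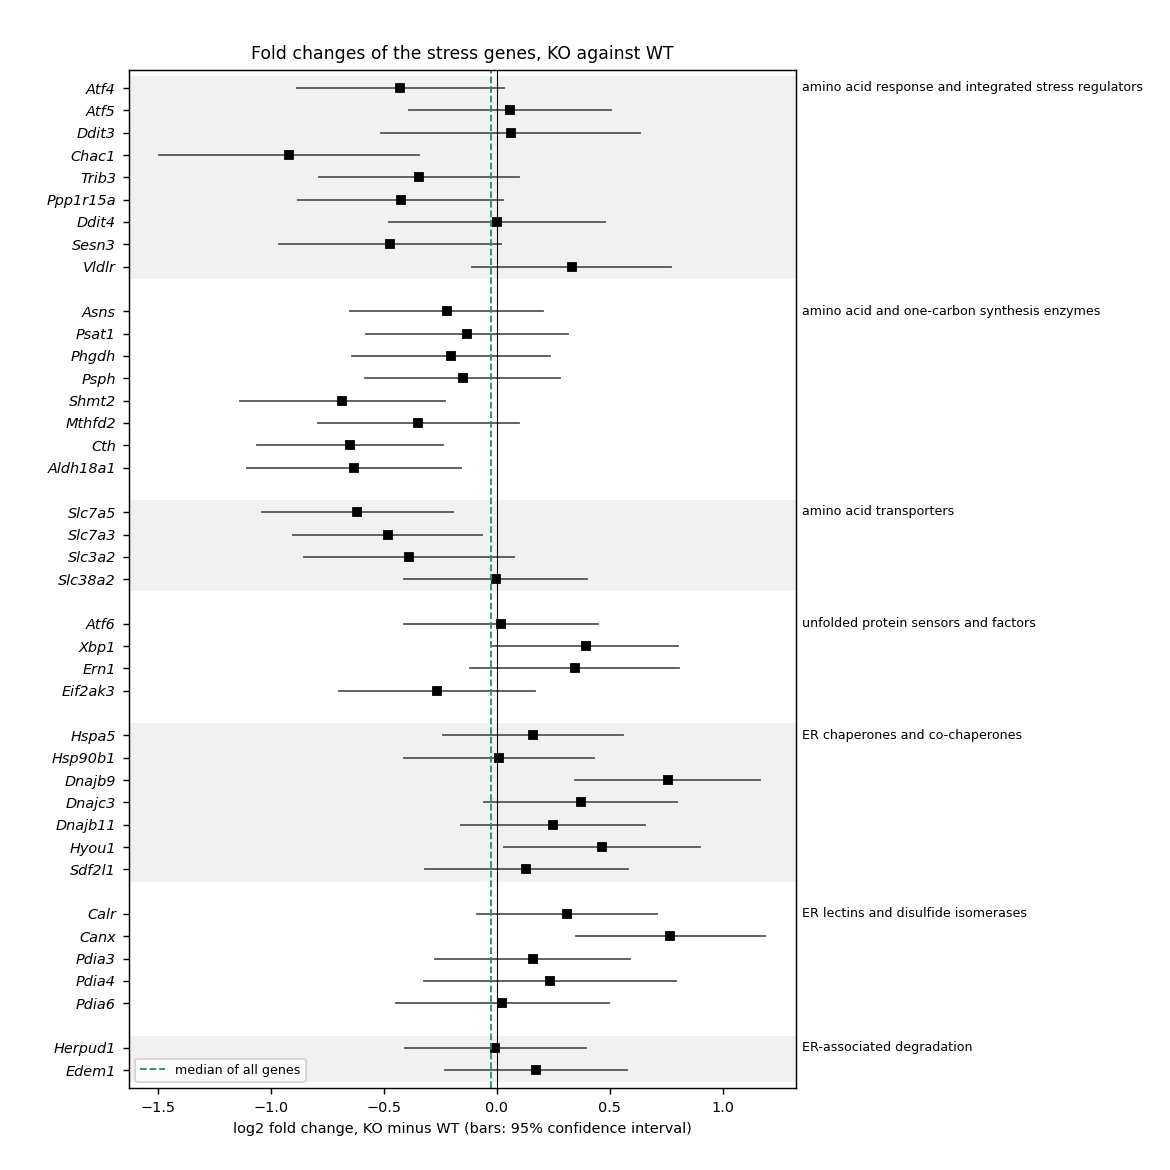
Squares are log2 fold changes (KO minus WT) of the 39 tested stress genes and bars their 95% confidence intervals from limma (n = 2 arrays per group). The dashed line is the median of all genes (-0.02), and the intervals of 9 genes, from Chac1 at -0.92 to Canx at 0.77, do not cross 0 before adjustment.

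All 8 tested enzymes of amino acid and folate-dependent carbon metabolism had negative values (52.8% of all genes did), and 6 of them were lower in both KO clones than in either WT clone (29.7% of all genes were). Shmt2, the mitochondrial enzyme that passes a carbon from serine to folate, read 353 and 470 in KO clones, against 656 and 674 in WT clones (log2 fold change -0.68 ± 0.20, 1.61-fold lower; limma, adjusted p = 0.10). Cth, which makes cysteine from cystathionine, read 453 and 395 in KO clones, against 688 and 659 in WT clones (-0.65 ± 0.18, 1.57-fold lower; limma, adjusted p = 0.092). Aldh18a1, which starts proline synthesis from glutamate, read 99.7 and 111 in KO clones, against 144 and 204 in WT clones (-0.63 ± 0.21; limma, adjusted p = 0.14). The groups did not overlap in the representing probe sets of these 3 genes, and in Aldh18a1 the WT clones lay further apart than the KO clones. The other tested Aldh18a1 probe sets, all with the suffix _x_at, had smaller falls, of -0.48, -0.21, -0.20 and -0.17. Among them the groups were apart only at -0.48, and the mean over all its probe sets gave -0.34.

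The serine pathway lay closer to 0. Phgdh, the enzyme that commits carbon to serine synthesis, read 836 and 845 in KO clones, against 862 and 1093 in WT clones (log2 fold change -0.20 ± 0.19, and -0.036 without WT clone 2). Psat1, its next step, read 2199 and 2172 in KO clones, against 2105 and 2735 in WT clones, so both KO clones lay within the WT range. Psph, the last step, read 639 and 541 in KO clones, against 705 and 609 in WT clones, and the groups overlapped. Mthfd2, a mitochondrial folate enzyme downstream of Shmt2, read 399 and 463 in KO clones, against 495 and 614 in WT clones (-0.35 ± 0.20; limma, adjusted p = 0.36). Asns, the asparagine synthetase gene and a standard reporter of amino acid shortage, read 2659 and 3242 in KO clones, against 3423 and 3435 in WT clones (-0.22 ± 0.19, 95% confidence interval -0.65 to 0.20), with -0.080 without KO clone 1 and -0.48 without normalization between arrays. Pycr1, which finishes proline synthesis, had no probe set in the annotation used here and was not analysed here.

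Of the 4 tested amino acid transporters, 3 were lower in both KO clones than in either WT clone, beside 29.7% of all genes. Slc7a5 (LAT1), the light chain of the main exchanger of large neutral amino acids, read 325 and 381 in KO clones, against 578 and 522 in WT clones (log2 fold change -0.62 ± 0.19, 1.54-fold lower; limma, adjusted p = 0.11). Its heavy chain Slc3a2 (CD98) read 913 and 1136 in KO clones, against 1198 and 1494 in WT clones (-0.39 ± 0.20; limma, adjusted p = 0.32). Slc7a3, a carrier of cationic amino acids, read 1347 and 1147 in KO clones, against 1749 and 1740 in WT clones (-0.48 ± 0.18; limma, adjusted p = 0.19).

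Slc38a2 (SNAT2), a sodium-coupled carrier of neutral amino acids that amino acid shortage induces, read 2103 and 2254 in KO clones, against 2251 and 2124 in WT clones. Its log2 fold change was -0.0059 (95% confidence interval -0.41 to 0.40), while its other tested probe sets had 0.57 and 0.04. The one at 0.57 read 663 and 385 in KO clones, against 291 and 390 in WT clones, and the groups overlapped. Slc7a11, the cystine carrier, was too dim to be tested: its brighter probe set read 7.84 and 7.77 in KO clones, against 5.75 and 7.94 in WT clones.

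On the unfolded protein side, the sensors and factors were split. Xbp1, the factor activated by Ern1 through splicing, read 2827 and 3025 in KO clones, against 2124 and 2327 in WT clones (log2 fold change 0.39 ± 0.18; limma, adjusted p = 0.26), and the 4 tested Xbp1 probe sets all had positive values, from 0.27 to 0.58. The probe set intensities were not used to tell spliced from unspliced Xbp1. Ern1, the sensor with kinase and nuclease activity, read 102 and 73.0 in KO clones, against 60.8 and 69.0 in WT clones (0.34 ± 0.20), while its other tested probe sets had -0.08 and 0.03. Eif2ak3, the sensor that phosphorylates eIF2, read 258 and 316 in KO clones, against 366 and 329 in WT clones (-0.27 ± 0.19). By representing probe sets it was the only unfolded protein gene to read lower in both KO clones. Atf6, the sensor that is cleaved into a transcription factor, read 75.7 and 96.0 in KO clones, against 84.5 and 83.8 in WT clones (0.02), and its other probe sets had -0.21 and -0.54. The groups overlapped in the one at -0.21. The one at -0.54 was lower in both KO clones, at 35.8 and 46.2, against 69.1 and 64.2 in WT clones.

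All 7 ER chaperone and co-chaperone genes had positive values (47.2% of all genes did), of which Hsp90b1, Dnajb11 and Sdf2l1 turned negative without normalization between arrays, and 5 read higher in both KO clones than in either WT clone (25.9% of all genes did). Dnajb9 (ERdj4), a co-chaperone induced through Xbp1 that restrains Ern1, read 842 and 780 in KO clones, against 496 and 452 in WT clones. Before quantile normalization it read 688 and 707 in KO clones, against 708 and 377 in WT clones, so the groups overlapped. After normalization the clones within each group differed by little beside the gap between groups. The log2 fold change was 0.76 ± 0.18 (1.69-fold higher, 95% confidence interval 0.35 to 1.17; limma, adjusted p = 0.058), the lowest adjusted p among the 39 genes, and without normalization between arrays it was 0.42 (adjusted p = 0.77). Hyou1, a large chaperone that exchanges nucleotide on BiP, read 464 and 583 in KO clones, against 377 and 369 in WT clones (0.47 ± 0.19; limma, adjusted p = 0.22). This probe set has the suffix _s_at (probes that can match related transcripts), and the Hyou1 probe sets without it did not share its rise. One had 0.05 with overlapping groups, and the other had -0.26 and was lower in both KO clones. Dnajc3 (p58IPK), a co-chaperone in the ER lumen, read 237 and 249 in KO clones, against 204 and 166 in WT clones (0.37 ± 0.19; limma, adjusted p = 0.31).

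The other chaperones lay nearer to 0. Hspa5 (BiP), the central ER chaperone and the usual readout of the unfolded protein response, read 5732 and 5615 in KO clones, against 4991 and 5163 in WT clones (log2 fold change 0.16 ± 0.18, 95% confidence interval -0.24 to 0.56). Hsp90b1 (GRP94), the ER form of Hsp90, read 3797 and 3347 in KO clones, against 3745 and 3347 in WT clones (0.0099, 95% confidence interval -0.41 to 0.43). Dnajb11 (ERdj3), another BiP partner, read 411 and 416 in KO clones, against 363 and 329 in WT clones (0.25 ± 0.18). Sdf2l1, an ER protein found with Dnajb11, read 70.9 and 96.5 in KO clones, against 71.4 and 77.4 in WT clones, and the groups overlapped.

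Among the lectins and disulfide isomerases, Canx (calnexin), the membrane lectin that folds glycoproteins, read 2938 and 3240 in KO clones, against 1685 and 1932 in WT clones (log2 fold change 0.77 ± 0.19, 1.70-fold higher, 95% confidence interval 0.35 to 1.19; limma, adjusted p = 0.059). Its suffix _s_at marks probes that can match related transcripts, and the Canx probe sets without it had 0.47 and 0.53, also higher in both KO clones. Calr (calreticulin), the soluble partner of Canx, read 4231 and 4268 in KO clones, against 3380 and 3466 in WT clones (0.31 ± 0.18; limma, adjusted p = 0.36). Before quantile normalization Calr read 3883 and 4014 in KO clones, against 4294 and 3103 in WT clones, so the groups overlapped. After it, the clones of each group differed by far less than the groups did.

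The disulfide isomerases overlapped between groups, and all 3 were positive here and negative without normalization between arrays. Pdia3 (ERp57), which works with Canx and Calr, read 2065 and 1811 in KO clones, against 1877 and 1599 in WT clones. Pdia4 read 185 and 155 in KO clones, against 108 and 183 in WT clones, and Pdia6 read 1590 and 1722 in KO clones, against 1387 and 1905 in WT clones. Of the genes for ER-associated degradation, Edem1, which picks out misfolded glycoproteins, read 299 and 302 in KO clones, against 255 and 275 in WT clones (log2 fold change 0.17 ± 0.18). Herpud1, a membrane protein of the degradation complex that responds strongly to ER stress, read 87.7 and 86.3 in KO clones, against 86.6 and 88.3 in WT clones (-0.0066, 95% confidence interval -0.41 to 0.39).

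The other probe sets of a gene mostly gave the same sign as the one that represented it. The 39 tested genes had 82 tested probe sets, and 0 of the 82 passed (3.69% of all probe sets did). Of 40 probe sets of amino acid genes 34 had a negative value, and of 42 probe sets of unfolded protein genes 35 had a positive one. Of the 24 genes with more than 1 tested probe set, 17 had the same sign in each, and the 7 with mixed signs were Ddit3, Slc38a2, Atf6, Ern1, Dnajc3, Hyou1 and Herpud1. The widest range was in Shmt2, whose values ran from -1.06 to -0.20. The lowest of these came from a probe set that read 19.9 and 87.9 in KO clones, against 107 and 116 in WT clones.

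**Figure D3:**
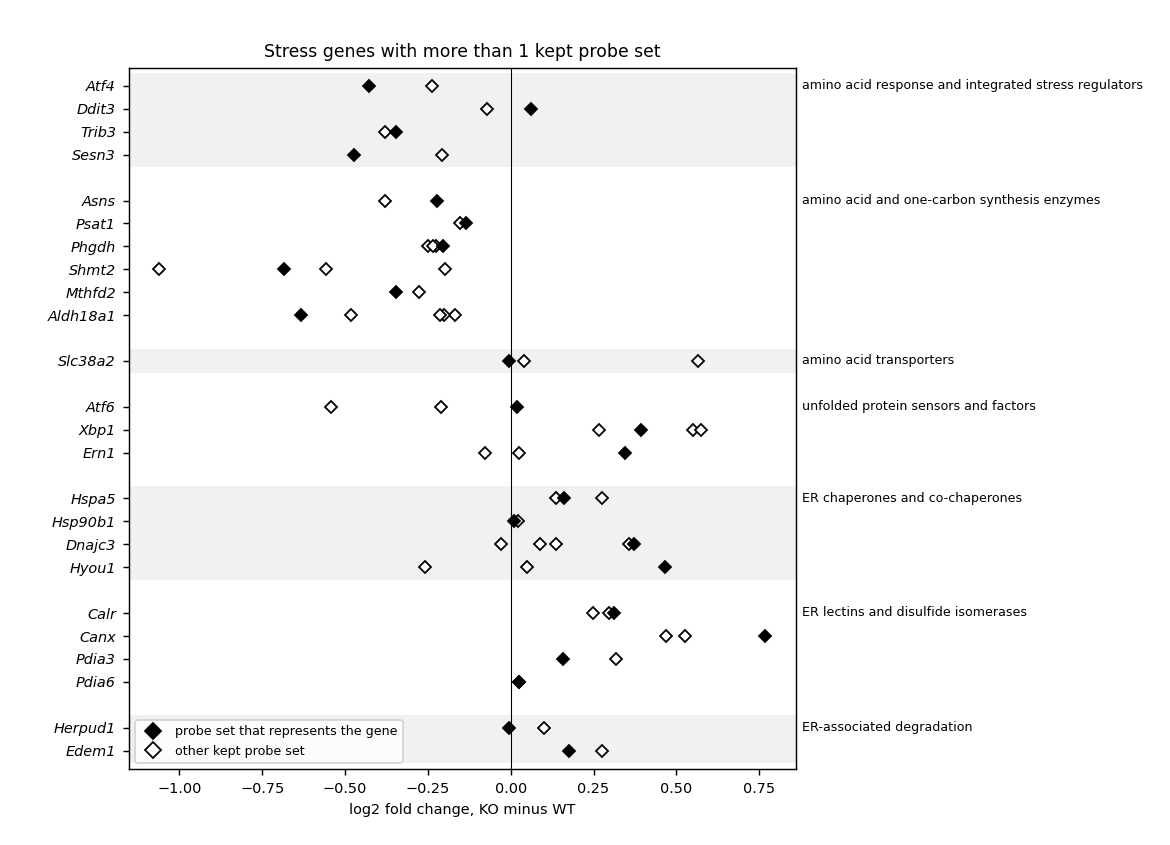
Rows are the 24 stress genes with more than 1 tested probe set, and each diamond is the log2 fold change (KO minus WT) of 1 probe set, filled for the probe set that represents the gene. The diamonds of 17 genes lie on 1 side of 0.

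Related genes outside the 41 were read from lists of the same pathways. Of 26 other genes of the amino acid response, 2 fell and 0 rose (1.34% of all genes were called lower), with a median of -0.25. Of the 26, 19 were negative and 7 positive, and at an unadjusted p under 0.05 there were 10 lower (38.5%, beside 10.6% of all genes) and 2 higher (7.69%, beside 10.9%). These 2, named after their values were seen, were Vegfa, a growth factor of blood vessels, with 284 and 208 in KO clones, against 131 and 123 in WT clones (0.86 ± 0.20; limma, adjusted p = 0.057), and the transcription factor Cebpb, with 0.60 ± 0.18 (limma, adjusted p = 0.12). Slc7a1 (CAT1), the main arginine and lysine carrier, read 208 and 277 in KO clones, against 491 and 600 in WT clones, and fell by 1.13 ± 0.21 on the log2 scale (2.19-fold; limma, adjusted p = 0.023). Another Slc7a1 probe set also passed (-0.85; limma, adjusted p = 0.046), and a dim one had -0.19. Slc1a5 (ASCT2), a glutamine carrier, read 57.3 and 58.1 in KO clones, against 111 and 125 in WT clones, and fell by 0.86 ± 0.18 (1.81-fold; limma, adjusted p = 0.036), with -0.31 on another probe set. Slc7a1 kept its call without WT clone 1 and lost it with any other clone left out (adjusted p from 0.057 to 0.16), and Slc1a5 lost it with any clone left out (adjusted p from 0.087 to 0.17).

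The aminoacyl-tRNA synthetases of the cytosol, which charge transfer RNA and many of which Atf4 induces, had the lowest median of the lists. Of 19 tested, 0 passed (9, or 47.4%, had an unadjusted p under 0.05, all lower in KO clones, beside 10.6% of all genes), 18 had a negative value, and 16 (84.2%, beside 29.7% of all genes) were lower in both KO clones than in either WT clone. Their median was -0.42. Aars, the alanine enzyme, read 1093 and 1356 in KO clones, against 1822 and 2251 in WT clones (-0.73 ± 0.20; limma, adjusted p = 0.092). Cars, the cysteine enzyme, read 323 and 344 in KO clones, against 413 and 661 in WT clones (-0.63 ± 0.24; limma, adjusted p = 0.19), with 0.23 on a dim probe set. The single positive value was 0.00084 in Kars, the lysine enzyme, named after its value was seen.

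Of 12 kinases and factors of the eIF2 signal, 0 passed (1 higher, 8.33%, and 2 lower, 16.7%, at an unadjusted p under 0.05, beside 10.9% and 10.6% of all genes), with a median of -0.16. Impact, an inhibitor of the amino acid sensing kinase Gcn2 and a paternally expressed imprinted gene in mouse, read 1102 and 1176 in KO clones, against 625 and 713 in WT clones (log2 fold change 0.76 ± 0.18; limma, adjusted p = 0.060). Eif2ak1, the kinase that senses haem shortage, read 225 and 251 in KO clones, against 336 and 372 in WT clones (-0.54 ± 0.18; limma, adjusted p = 0.14). Of 14 cytosolic heat shock genes, 0 passed (2 lower, 14.3%, at an unadjusted p under 0.05, beside 10.6% of all genes), with a median of -0.08. Hspb1, a small heat shock protein, read 3934 and 4838 in KO clones, against 6905 and 7185 in WT clones (-0.69 ± 0.19; limma, adjusted p = 0.088), and Hspa1a, the inducible Hsp70, read 92.8 and 97.6 in KO clones, against 147 and 136 in WT clones (-0.50 ± 0.18).

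After quantile normalization the other ER lists had positive medians like the unfolded protein genes. Of 32 further folding and degradation genes, 0 passed (9 higher, 28.1%, and 0 lower at an unadjusted p under 0.05, beside 10.9% and 10.6% of all genes), with a median of 0.25, and 20 (62.5%, beside 25.9% of all genes) read higher in both KO clones than in either WT clone. Hspa13, an Hsp70 relative of the ER, read 608 and 483 in KO clones, against 333 and 274 in WT clones (0.81 ± 0.20; limma, adjusted p = 0.065), and 1 of its 3 other probe sets passed (0.97; limma, adjusted p = 0.030). Selenos, a selenoprotein of ER-associated degradation, read 1150 and 861 in KO clones, against 578 and 585 in WT clones (0.76 ± 0.20; limma, adjusted p = 0.078).

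Of 27 genes of ER import and of export in COPII vesicles, 1 rose and 0 fell (2.94% of all genes were called higher), with a median of 0.27. Of the 27, 20 were positive and 7 negative. At an unadjusted p under 0.05 there were 7 higher (25.9%, beside 10.9% of all genes) and 1 lower (3.7%, beside 10.6%). The lower one, named after its value was seen, was Sec24c (-0.43 ± 0.18). Sar1b, the GTPase that starts COPII coats, read 2524 and 1880 in KO clones, against 955 and 960 in WT clones, and rose by 1.17 ± 0.20 on the log2 scale (2.25-fold; limma, adjusted p = 0.017). It lost its call without KO clone 1 (adjusted p = 0.13) and without WT clone 2 (0.066). Sec11c, a subunit of the signal peptidase, read 605 and 332 in KO clones, against 239 and 235 in WT clones (0.88 ± 0.27; limma, adjusted p = 0.11).

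Of 12 ER enzymes that modify collagen, 2 rose and 0 fell (2.94% of all genes were called higher and 1.34% lower), with a median of 0.15. P3h3, a collagen prolyl hydroxylase family gene, read 69.1 and 59.6 in KO clones, against 25.7 and 17.7 in WT clones, and rose by 1.10 ± 0.19 (2.14-fold; limma, adjusted p = 0.019). P3h4, which works with P3h3 in collagen modification, read 189 and 174 in KO clones, against 93.6 and 86.1 in WT clones, and rose by 0.90 ± 0.18 (1.87-fold; limma, adjusted p = 0.030). P3h3 kept its call without WT clone 1 and lost it with any other clone left out (adjusted p from 0.070 to 0.14), and P3h4 lost it with any clone left out (adjusted p from 0.082 to 0.17). These ER lists stood in the same arrays as the fibroblast markers, with their median of 2.02, whose part was not tested.

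**Figure D4:**
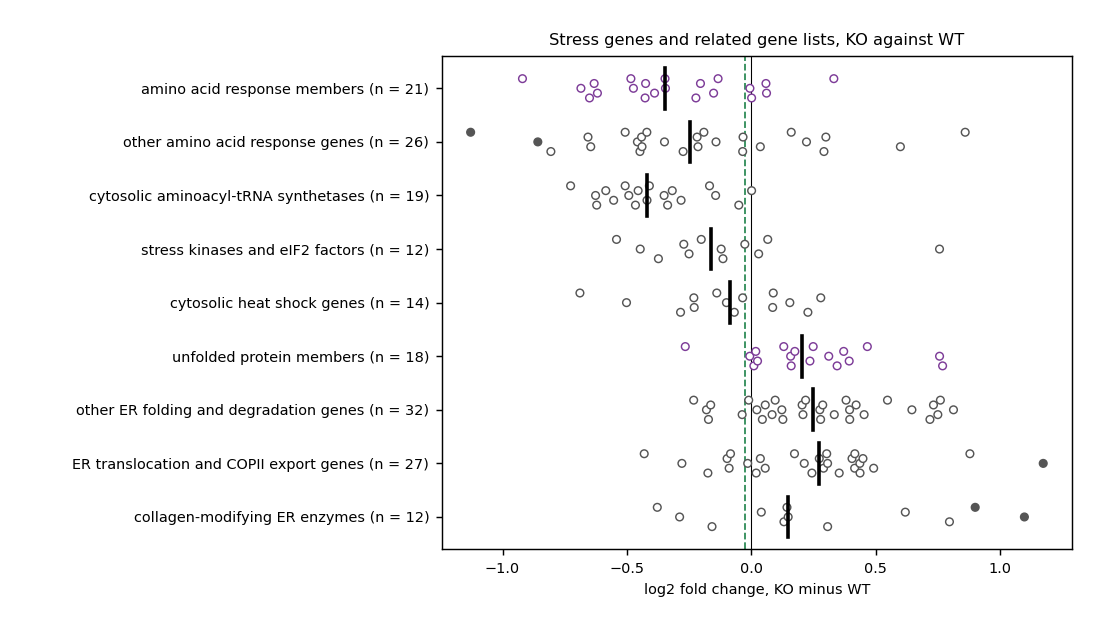
Each point is the log2 fold change (KO minus WT) of 1 gene, purple for the stress genes and grey for the related lists, filled where limma's adjusted p was under 0.05. Black bars are list medians, which run from -0.42 for the aminoacyl-tRNA synthetases to 0.27 for ER import and export genes, and the dashed line is the median of all genes (-0.02).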

How the data were processed

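The deposited table holds 1 linear intensity per probe set and array (45101 rows, 64 of them control probe sets), from biotin-labelled total RNA on Affymetrix arrays per the labels' protocols. How the authors summarised, background-corrected or scaled the probes is not stated in the labels or the file. The trimmed means of the arrays (2% removed at each end) differed by up to 1.65 times, so the arrays were quantile normalized and log2(intensity + 16) was taken, which understates the change of dim genes. Probe sets below the 40th percentile of mean log2 value were removed, which left 27022. KO and WT were compared with limma 3.58.1 in R 4.3.3 (a linear model with empirical Bayes variances; 2 residual degrees of freedom, prior 6.87), adjusted over these probe sets after Benjamini-Hochberg. Errors are moderated standard errors, and the number of arrays limits the precision. The fit was tested on simulated data.

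Probe sets were named by the platform annotation (34958 with 1 symbol, 932 with several, 9160 with none outside the controls; 34754 matched RefSeq genes of GRCm38.p6). The members and lists were chosen with earlier results of these data known. All stress genes and Klf5 were to be named, with up to 4 genes of each related list (the largest changes each way past the threshold, filled to 2 by size). Results were recomputed without normalization, with median centring, with pseudocounts of 1 and 64, with the filter absent or at the 60th percentile, with a variance trend, with the clone number blocked, with every array omitted in turn (the lone array is taken to vary as the other genotype does) and with all probe sets of a gene averaged. The averaged run was fitted and adjusted over the 13023 genes, and in the other runs the representing probe set was chosen anew.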

Additional observations from a re-analysis of the deposited data

How the results depend on the processing

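The number of calls depended strongly on the settings, while the amino acid median stayed below and the unfolded protein median above that of all genes. The size of the gap varied, from -0.22 (without WT clone 2) to -0.45 (without normalization) for the amino acid genes. For the unfolded protein genes it ran from 0.18 (without KO clone 1) to 0.29 (without KO clone 2). The variance trend and the clone block leave the fold changes as they are, so those runs could not move the gap. Of all probe sets, 996 were called, against 189 with a pseudocount of 1, 2060 with one of 64, 190 with no filter, 332 without normalization, 2060 with median centring and 1955 with a variance trend, and between 203 and 653 with 1 clone left out. Of the stress genes 0 were called, against 6 with a pseudocount of 64, 4 with the 60th percentile filter, 6 with median centring, 6 with a variance trend and 5 with probe sets averaged, and 0 to 1 with 1 clone left out (Chac1 without WT clone 1). Of the genes of the related lists 5 were called, against 0 with a pseudocount of 1, 23 with one of 64, 0 with no filter, 17 with the 60th percentile filter, 1 without normalization, 15 with median centring, 22 with a variance trend and 13 with the mean of probe sets, and 0 to 3 with 1 clone left out. The cause of these shifts was not tested.

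With clone number as a replicate block, 3 stress genes (Canx, Chac1 and Dnajb9) and 8 related genes were called, beside 5.84% of all genes. The deviations of same-numbered clones from their group means correlated at 0.055 for number 1 across the groups. No label says that a number marks a shared origin, and whether clones of the same number share more was not tested.

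The amino acid median of -0.35 was -0.68 without normalization and -0.64 with median centring, where all genes had -0.23 and -0.19, and between -0.38 and -0.23 with 1 clone left out. The unfolded protein median of 0.20 was 0.17 with a pseudocount of 64, -0.020 without normalization, 0.018 with median centring and 0.19 with the mean of probe sets, and 0.18 to 0.25 with 1 clone left out.

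Of the 39 stress genes, 25 kept their sign under every alternative run and 14 turned under at least 1. Without normalization the value was -0.16 for Atf5, -0.13 for Ddit3, -0.35 for Ddit4, -0.15 for Atf6, -0.20 for Hsp90b1, -0.071 for Dnajb11, -0.031 for Sdf2l1, -0.14 for Pdia3, -0.0096 for Pdia4, -0.32 for Pdia6 and -0.12 for Edem1. With median centring it was -0.12 for Atf5, -0.093 for Ddit3, -0.31 for Ddit4, -0.12 for Atf6, -0.16 for Hsp90b1, -0.033 for Dnajb11, -0.10 for Pdia3, -0.28 for Pdia6 and -0.081 for Edem1. With the mean of probe sets it was -0.0054 for Ddit3, 0.20 for Slc38a2, -0.24 for Atf6 and 0.047 for Herpud1. With 1 clone left out, values ran from -0.12 to 0.24 for Atf5, -0.21 to 0.34 for Ddit3, -0.18 to 0.18 for Ddit4, -0.33 to 0.053 for Psat1, -0.054 to 0.044 for Slc38a2, -0.13 to 0.17 for Atf6, -0.081 to 0.097 for Hsp90b1, -0.056 to 0.33 for Sdf2l1, -0.10 to 0.58 for Pdia4, -0.21 to 0.25 for Pdia6 and -0.018 to 0.0053 for Herpud1. The value moved by over 1.5 times or turned sign without normalization in 34 of the 39 (18 of 18 unfolded protein genes and 16 of 21 amino acid genes), and with some clone left out in 28 (11 and 17). The representing probe set was chosen anew in each run, so a move can also reflect a change of probe set. Vldlr with no filter (0.61) came from a probe set other than the one at 0.33. With 2 arrays per group, dim genes such as Vldlr and Slc7a11 were limited by signal near background.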
